A study of Mus musculus with 6 samples.

Results

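Molecular chaperones and the genes of the unfolded protein response were read as one panel of 43 genes in lipopolysaccharide (LPS)-activated mouse macrophages. The genes were taken by symbol from the deposited 3′-end count table, and the transcript of highest mean count stood for each gene. The panel held 14 endoplasmic reticulum (ER) chaperones and folding enzymes, 8 sensors, transcription factors and degradation factors of the unfolded protein response, 11 cytosolic heat shock proteins and their regulators, 3 mitochondrial chaperones and 7 subunits of the CCT chaperonin. Of the 43 genes, 42 passed the filter on low counts and stood among 11875 genes tested. The exception was Pdia4, an ER disulfide isomerase, which had between 1.14 and 3.81 normalised counts per library.

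The macrophages were bone marrow-derived (BMDMs) from C57BL/6J mice, grown for 10 days in medium conditioned by L929 cells, which supplies a macrophage growth factor, and then treated with LPS at 100 ng/ml for 4 hrs. Control BMDMs (3 libraries) were hnRNPDfl/fl, that is, they carried the floxed gene of the RNA-binding protein AUF1 and, as labelled, no Cre. M-Δx3,4 BMDMs (3 libraries) were LysMCre+ hnRNPDfl/fl, in which Cre made from the lysozyme M locus of myeloid cells removes exons 3 and 4. All 6 libraries were LPS-treated, so the comparison was of genotypes in activated cells and holds no unstimulated level, and Cre was present in one genotype only, so that Cre and the deletion cannot be told apart. Lyz2, the gene of that locus, had 1752 to 2156 normalised counts in control and 864 to 1315 in M-Δx3,4. The sources used here do not say which cultures came from which animals, so the p-values measure the spread between these samples, which may be technical.

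Proteins of the secretory pathway fold in the ER with the help of chaperones such as BiP (Hspa5), lectin chaperones and disulfide isomerases. When unfolded protein builds up, the sensors IRE1 (Ern1), ATF6 and PERK raise the transcription of these helpers and of ER-associated degradation (ERAD), partly through the factors XBP1 and ATF4. In the cytosol the heat shock factor HSF1 does the same for the HSP70, HSP90 and HSP40 families. Activated macrophages make much secreted protein, which is why these genes are of interest after LPS.

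The 6 libraries summed to between 5852374 and 9008878 counts. The deletion showed in the Hnrnpd transcript for the p37 isoform. This transcript had 174, 102 and 68.2 normalised counts in control and 51.8, 12.4 and 15.7 in M-Δx3,4 BMDMs. Its log2 fold change was -2.11, yet it did not pass after adjustment in edgeR, DESeq2 or limma-voom. It passed in edgeR when no filter on low counts was used. The control libraries stood apart from one another. Across genes with a mean above 50 normalised counts, control replicates 1 and 3 correlated at 0.755, the lowest of all pairs, while control replicate 1 and M-Δx3,4 replicate 3 correlated at 0.970. Control replicates 1 and 3 also lay at opposite ends of a trend with the GC content of the transcripts (-0.80 and 0.99 on the log2 scale between the 10th and the 90th GC percentile, against -0.64 to 0.06 in M-Δx3,4). The defining macrophage markers were present in every library (summed level 6308 to 10883 normalised counts). Of these 9 markers, 2 had an unadjusted edgeR p under 0.05, both lower in M-Δx3,4, where 2.53% of all genes tested were lower. Fibroblast (1.90 to 47.8), T and NK cell (24.9 to 53.5) and dendritic cell markers (0.958 to 5.01, from 1 tested gene) were low in all 6. Fibroblast markers were highest in control replicate 1. Plasma cell markers summed to 52.1 to 115. B cell markers summed to 287 to 346 in control and 138 to 157 in M-Δx3,4, almost all of it the light chain gene Igkc and the heavy chain gene Ighm, and neutrophil markers to 379 to 714. In bulk RNA of this kind, fewer cells of a type and less RNA per cell cannot be told apart.

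Promoter elements known for ER and heat shock genes are shown first, because they group the panel by a feature that the counts did not use. RefSeq promoters (GRCm38.p6, 250 bases before to 50 after the start site) were at hand for 34 of the 43 genes, and not for Hyou1, Manf, Atf6, Hspa8, Hsp90aa1, Hsp90ab1, Hsf1, Hspa9 and Cct4. The ER stress response element, searched on both strands as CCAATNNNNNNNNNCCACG, was found in 7 of the 34 (20.6%), all of them ER or ERAD genes, and in 37 of 27025 genes with a promoter overall (0.137%). The heat shock element, searched on both strands as GAA, TTC and GAA with 2 free bases between neighbours, was found in 4 (11.8%), all cytosolic or mitochondrial genes, against 0.662% of all genes with a promoter. The XBP1 site TGACGTGG was found for 0 of the 34 genes (0.714% of all), and the ATF4-type element TGATGNAA for 1, Herpud1 (4.51% of all), which says nothing of whether those factors bind. The matches of the ER stress response element and of the heat shock element are given below with 3 flanking bases on each side, read along the gene's own strand, with the fixed bases of the element in capitals.
Hspa5 (chr2:34772025-34772043, plus strand): tcaCCAATcggaggcctCCACGacg
Calr (chr8:84847075-84847093, minus strand): acgCGTGGtcgaccctcATTGGccc
Canx (chr11:50325800-50325818, minus strand): tgaCCAATcaccacgctCCACGaag
Hsp90b1, nearer the start site (chr10:86705533-86705551, minus strand): gtgCGTGGtgaggcacgATTGGtga
Hsp90b1, farther from it (chr10:86705638-86705656, minus strand): agcCCAATcgcaaggagCCACGctt
Pdia6 (chr12:17266491-17266509, plus strand): agaCCAATgaaaggcggCCACGgcg
Dnajc3 (chr14:118937827-118937845, plus strand): caaCCAATcagcgccaaCCACGacc
Syvn1 (chr19:6046532-6046550, plus strand): caaCCAATcggcggtagCCACGgga
Hspd1, first heat shock element (chr1:55088059-55088071, minus strand): ccgGAAggTTCtaGAAcgg
Hspd1, second heat shock element (chr1:55088064-55088076, minus strand): gccTTCcgGAAggTTCtag
Hspe1, first heat shock element (chr1:55088059-55088071, plus strand): ccgTTCtaGAAccTTCcgg
Hspe1, second heat shock element (chr1:55088064-55088076, plus strand): ctaGAAccTTCcgGAAggc
Hsph1, heat shock element (chr5:149636288-149636300, minus strand): agaTTCtgGAAagTTCtcc
Dnajb6, heat shock element (chr5:29735852-29735864, plus strand): cgaGAAtcTTCcgGAAcgc

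In Calr and in the first Hsp90b1 site the element lay in reverse orientation, and Hsp90b1 was the one gene with 2 matches of this element. Hspd1 and Hspe1, which encode the mitochondrial chaperonin and its lid, are transcribed in opposite directions, and both had the same 2 overlapping matches on chromosome 1, read on opposite strands. The element centres lay between 35 and 203 bases upstream of the start site for the ER set.

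No gene of the panel met the study's threshold of an unadjusted p under 0.05 with at least a 2-fold change, and none passed after adjustment. One of 42 had an unadjusted p under 0.05 by edgeR's quasi-likelihood test (Calr, lower in M-Δx3,4), where 3.98% of all genes tested did (2.53% lower and 1.45% higher, and 3.34% of genes with a mean above 50 normalised counts) and 3.07% met the study's threshold. The count of adjusted p under 0.05 was 0 in edgeR, as in DESeq2 and limma-voom, and the smallest adjusted p of the panel was 0.984. Log2 fold changes (M-Δx3,4 against control) ran from -0.70 to 0.61 with a median of 0.09, beside -0.01 over all genes. They were above 0 for 29 genes and below 0 for 13, where 49.5% of all genes lay above 0. Libraries of the genotypes did not overlap for Manf (lower) and Tcp1 (higher), 2 of 42 against 8.44% of all genes.

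**Figure D1:**
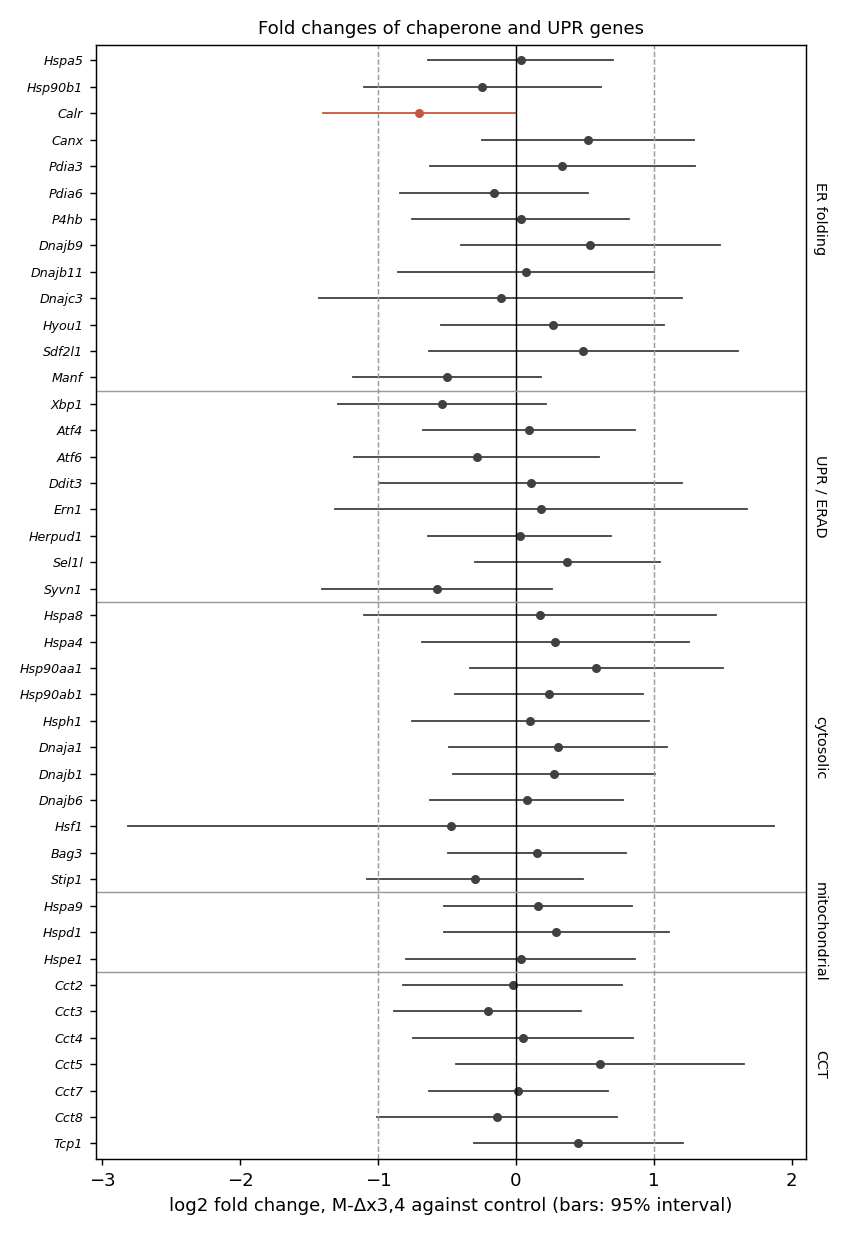
Log2 fold change of each of the 42 tested genes, M-Δx3,4 against control BMDMs (points), with its 95% interval from the edgeR fit (bars), grouped by role. Dashed lines mark a 2-fold change. No point reaches a dashed line, and the interval of Calr alone, in red, stays on one side of 0.

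The precision of these values limits what their absence of calls can say. The Hnrnpd transcript of the deleted gene did not pass after adjustment either, so failing adjustment does not show that a gene was unchanged. The 95% interval lay wholly within a 2-fold change for 16 of the 42 genes (38.1%), against 17.4% of all genes, and for 15 of the 35 with a mean above 50 normalised counts (42.9%), against 40.4% of all genes of that level. For the rest, a 2-fold difference in at least one direction stayed inside the interval.

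**Figure D2:**
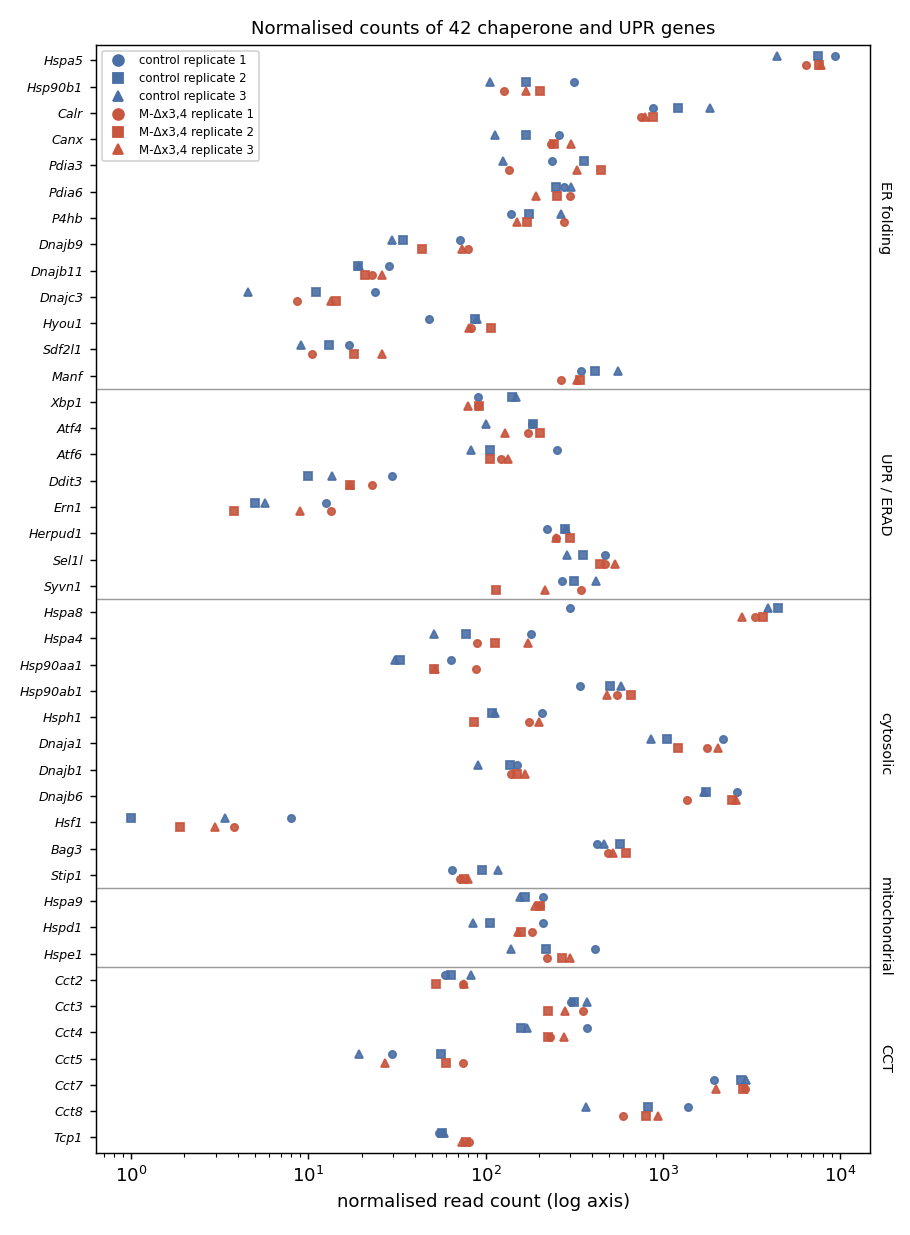
Normalised read count of each of the 42 tested genes (log axis) in 3 control (blue) and 3 M-Δx3,4 (red) libraries, with the marker shape giving the replicate. Hspa5 is the highest gene of the panel with 4389 to 9392 counts, Hspa8 has a single low control library at 298, and the genotypes separate fully for Manf and Tcp1.

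Levels per length were read from the authors' TPM values, and their order differs from the order by counts. Since the libraries read 3′ ends, division by length favours genes with short counted regions. The order by TPM is therefore not an order of mRNA abundance. Hspa8, the constitutive cytosolic HSP70, stood first with 619 ± 479 TPM in control and 739 ± 78.6 in M-Δx3,4 (mean ± SD, n = 3). Hspa5 followed with 315 ± 129 and 326 ± 31.4. The control means of these genes differed by less than the SD of Hspa8. By normalised counts Hspa5 was the higher, with a control mean of 7107 against 2887 for Hspa8. Below these came Cct7 (125 ± 19.3 and 130.2 ± 25.0), Dnajb6 (93.5 ± 30.3 and 99.6 ± 29.9), Calr (91.4 ± 29.9 and 58.2 ± 2.42), Manf (86.3 ± 17.2 and 62.9 ± 6.80), Cct4 (71.0 ± 41.7 and 73.9 ± 10.5) and Hsp90ab1 (70.9 ± 14.6 and 86.6 ± 10.0). From Dnajb6 to Hsp90ab1, neighbours in this order differed in control by less than their SDs. The sensor Ern1 and the factor Hsf1 were at the bottom.

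Among the ER chaperones, Hspa5 (BiP, the ER HSP70 and the usual marker of the unfolded protein response) had 9392, 7539 and 4389 normalised counts in control and 6423, 7616 and 7804 in M-Δx3,4. The M-Δx3,4 values lay inside the range that the control libraries spanned on their own. The log2 fold change was 0.04 (SE 0.31, 95% interval -0.63 to 0.70). Hsp90b1 (GRP94, the ER HSP90) had 315, 169 and 106 counts in control and 127, 204 and 168 in M-Δx3,4, a log2 fold change of -0.24 (SE 0.40). As in Hspa5, control replicate 1 was the highest library and control replicate 3 the lowest.

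Calr encodes calreticulin, a soluble lectin chaperone that binds newly made glycoproteins. It had 880, 1218 and 1851 normalised counts in control and 755, 883 and 791 in M-Δx3,4. The M-Δx3,4 libraries were close together, and the lowest control library lay between their highest and their second, so that the genotypes overlapped. The log2 fold change was -0.70 (SE 0.33), with an unadjusted edgeR p of 0.04995 and an adjusted p of 0.984, and an exact two-sided permutation test over the 6 libraries gave p = 0.2, where 0.1 is the smallest it allows. The unadjusted call was lost when any library other than control replicate 1 was left out, and under TMM, library totals and limma-voom, and the log2 fold change was -0.36 without control replicate 3. Its membrane-bound partner Canx (calnexin), which shares the same glycan substrate, had 260, 170 and 113 counts in control and 233, 243 and 303 in M-Δx3,4. Canx thus had the opposite sign from Calr, at 0.52 (SE 0.36, exact permutation p = 0.3), and its genotypes overlapped through control replicate 1.

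Manf, a secreted ER-resident factor released under ER stress, had 347, 416 and 560 normalised counts in control and 266, 340 and 330 in M-Δx3,4. All 3 M-Δx3,4 libraries lay under all 3 control libraries, with 347 and 340 as the values nearest to each other. The log2 fold change was -0.50 (SE 0.32, unadjusted edgeR p = 0.138), and the exact permutation p was 0.1, the smallest possible. Without control replicate 3 the log2 fold change was -0.28.

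The remaining ER folding genes had smaller or less certain differences. The disulfide isomerases Pdia3, Pdia6 and P4hb had log2 fold changes of 0.34, -0.16 and 0.03. The ER J-domain proteins Dnajb9, Dnajb11 and Dnajc3, which hand substrates to BiP or stimulate it, had 0.54, 0.07 and -0.11. Hyou1, a BiP nucleotide exchange factor, had 0.27, and Sdf2l1, a partner of the ER J-domain proteins, had 0.49 from 9.09 to 26.2 counts. None of these had an unadjusted p under 0.05. Over all 13 tested ER folding genes 8 lay above and 5 below 0, with a median of 0.04. The 7 genes with an ER stress response element in the window ran from -0.70 to 0.52, with 5 below 0. The other 11 ER, signalling and ERAD genes with a promoter ran from -0.54 to 0.54, with 10 above 0. This split was made after the values were seen and was not tested. Many of these signs turned when 1 library was left out. They were those of Hspa5, Hsp90b1 and Dnajc3 with the element, and of Pdia3, P4hb, Dnajb11, Atf4, Ddit3, Ern1 and Herpud1 without it. Without control replicate 1, Hsp90b1 was at 0.27 and Dnajc3 at 0.62.

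The transcription factors and sensors of the response gave no call. Xbp1, whose spliced mRNA makes the factor of the IRE1 arm, had 91.1, 141 and 148 normalised counts in control and 91.0, 91.3 and 79.4 in M-Δx3,4. Its M-Δx3,4 libraries sat at the level of the lowest control library, at a log2 fold change of -0.54 (SE 0.35, exact permutation p = 0.2). A 3′-end count does not separate spliced from unspliced Xbp1.

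Atf4, the factor of the PERK arm, which is regulated largely at translation, had 183, 186 and 101 counts in control and 173, 202 and 129 in M-Δx3,4 (log2 fold change 0.10, SE 0.36). Ddit3 (CHOP), the target of ATF4 linked to cell death, had 29.6, 10.0 and 13.6 counts in control and 23.0, 17.1 and 17.2 in M-Δx3,4 (0.11, SE 0.51). In both genes the libraries overlapped. The counted region of the Ddit3 transcript lay in the 249 bases past its annotated end, of which 223 were exonic in other transcripts of the gene.

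The sensors Atf6 and Ern1 had log2 fold changes of -0.28 and 0.18, the latter from 3.81 to 13.4 counts. Among the ERAD genes, Herpud1, a membrane adaptor, had 221 to 301 counts and a log2 fold change of 0.03 (SE 0.31). Sel1l and Syvn1, which form the core ubiquitin ligase complex of ERAD, had opposite signs at 0.37 (SE 0.32) and -0.58 (SE 0.39). Syvn1 had 271, 315 and 422 counts in control and 344, 115 and 217 in M-Δx3,4, so that M-Δx3,4 replicate 1 lay within the control range and the other two under it. Without that library the log2 fold change of Syvn1 was -1.01, past the study's threshold, and without M-Δx3,4 replicate 2 it was -0.26. The share of all genes past the threshold in the former fit is not given here, so it is no support for a difference.

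Of the cytosolic chaperones, Hspa8 (HSC70) had 298, 4458 and 3906 normalised counts in control and 3330, 3670 and 2794 in M-Δx3,4. Control replicate 1 was 9.36-fold to 14.9-fold lower than each of the other 5 libraries, which lay within 2794 to 4458. The log2 fold change was 0.18 (SE 0.60) with all libraries and -0.36 without control replicate 1, where control replicates 2 and 3 averaged 4182 against 3264 in M-Δx3,4.

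The drop lay in the counted 3′-end region on chromosome 9 (40805118 to 40805449, GRCm38) that 2 coding transcripts share. An upstream region of the gene (40804338 to 40804586), counted for the transcript ENSMUST00000153847, had 108, 80.1 and 51.2 normalised counts in control and 62.3, 80.9 and 93.6 in M-Δx3,4, with control replicate 1 the highest. Genes at least 8-fold under every other library were found in control replicate 1 for 16 of 4667 genes with a mean above 50, and for 0 to 15 in the others. Hspa8 has many near-identical processed copies in the genome, and how reads with several matches were treated is not given in the sources used here, so its level is uncertain. Whether these copies bear on the drop was not tested.

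**Figure D3:**
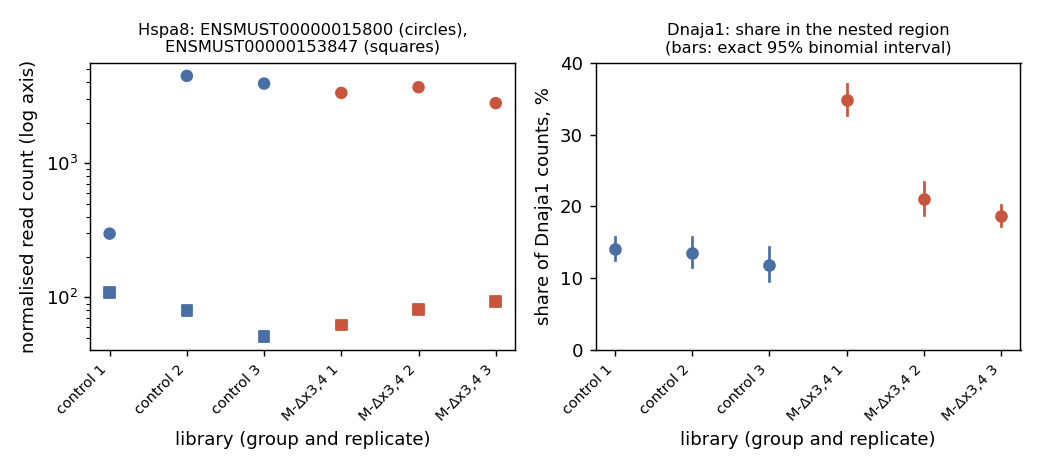
Left, normalised read count (log axis) of the Hspa8 3′-end region (circles) and of the upstream region (squares) in each library, control in blue and M-Δx3,4 in red. The circle of control replicate 1 lies at 298 against 2794 to 4458 elsewhere, while its square is the highest. Right, share of the Dnaja1 counts that fell in a nested region, with exact 95% binomial intervals, 11.8% to 14.1% in control and 18.7% to 34.9% in M-Δx3,4.

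Hsp90aa1 and Hsp90ab1 encode the inducible and the constitutive cytosolic HSP90. Hsp90aa1 had 63.8, 33.0 and 30.7 normalised counts in control and 88.2, 51.4 and 51.7 in M-Δx3,4, a log2 fold change of 0.58 (SE 0.43). Hsp90ab1 had 342, 505 and 583 counts in control and 549, 657 and 485 in M-Δx3,4, a log2 fold change of 0.24 (SE 0.32). Both overlapped, Hsp90aa1 through control replicate 1 alone and Hsp90ab1 through control replicates 2 and 3. Hsf1, the heat shock factor itself, had 7.97, 1.00 and 3.41 counts in control and 3.83, 1.90 and 2.995 in M-Δx3,4, too few to place (log2 fold change -0.47, SE 1.10).

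The co-chaperones were mostly above 0. The HSP40 proteins Dnaja1, Dnajb1 and Dnajb6 had log2 fold changes of 0.30, 0.28 and 0.08, with Dnajb6 at 1376 to 2624 counts. The HSP110 proteins Hspa4 and Hsph1, which exchange nucleotide on HSP70, had 0.29 and 0.11, and Bag3, the co-chaperone of chaperone-assisted autophagy, 0.15 (SE 0.30). Stip1 (HOP), which links HSP70 to HSP90, had -0.30. Of the 11 cytosolic genes 9 lay above 0, with a median of 0.18, and none had an unadjusted p under 0.05.

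For Dnaja1, a further region allowed a look at where the reads lay within the counted stretch. Its counted region on chromosome 4 (40732947 to 40735213, plus strand) is the end of the transcript ENSMUST00000030118, and a region of 249 bases inside it (40733901 to 40734149) is counted again for ENSMUST00000129204, whose annotated end comes just before. The nested region held 14.1%, 13.5% and 11.8% of the counts in control and 34.9%, 21.0% and 18.7% in M-Δx3,4, a mean of 13.1% ± 1.21 against 24.9% ± 8.76 (SD, n = 3). All M-Δx3,4 shares were above all control shares (exact two-sided permutation p = 0.1, the smallest possible), and M-Δx3,4 replicate 1 was the farthest out.

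The transcript ENSMUST00000129204 itself had a log2 fold change of 1.19 (unadjusted edgeR p = 0.0157, adjusted 0.984, exact permutation p = 0.2), with overlapping libraries. Across the panel 13 such nested regions were found in 10 genes, and shares did not overlap for 2 of them, against 8.32% of 1370 nested regions in all genes. The second was in Sel1l, where the share was 10.4%, 13.8% and 9.41% in control and 8.96%, 8.41% and 8.95% in M-Δx3,4, a gap smaller than the spread between the control libraries. These regions were singled out after their values were seen.

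Taking every tested transcript of the panel, 128 transcripts with 103 different sets of counts, 4 had an unadjusted edgeR p under 0.05 (3.12%, against 4.13% of all transcripts) and 3 met the study's threshold (3.30% of all). Besides Calr and the Dnaja1 transcript these were ENSMUST00000129005 and ENSMUST00000155242 of Hsp90aa1. The former had 0, 2.002 and 2.27 normalised counts in control and 1.92, 9.51 and 31.4 in M-Δx3,4. It passed the filter on low counts through M-Δx3,4 libraries alone, the group where it was higher, so its call is no support for a difference. ENSMUST00000155242 had 19.4, 21.0 and 2.27 in control and 16.3, 45.7 and 63.6 in M-Δx3,4. In both, M-Δx3,4 replicate 1 lay within the control range, and both regions lie past the annotated end of an incomplete transcript inside the gene.

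The mitochondrial chaperones had log2 fold changes of 0.16 for Hspa9 (mortalin, the mitochondrial HSP70), 0.29 for Hspd1 (HSP60) and 0.03 for Hspe1 (HSP10). Hspd1 and Hspe1, which share the promoter shown above, had the same order of control libraries. That order was not particular to them: Hspa9 had it too (212, 166 and 156 normalised counts in control), as did Hspa5 and Hsp90b1. Hspd1 had 211, 106 and 85.3 normalised counts in control and 182, 158 and 152 in M-Δx3,4. Hspe1 had 416, 218 and 140 in control and 222, 271 and 298 in M-Δx3,4. In both genes the control libraries spread around the M-Δx3,4 libraries, with control replicate 1 highest and control replicate 3 lowest. Both have processed copies in the genome, which leaves their levels uncertain in the same way as Hspa8.

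The CCT chaperonin folds actin and tubulin, and holds its subunits in equal number. Tcp1 (CCT1) had 54.7, 57.1 and 58.0 normalised counts in control and 80.5, 78.0 and 74.1 in M-Δx3,4. Its libraries did not overlap and were tight within each genotype (56.6 ± 1.71 against 77.6 ± 3.21, SD, n = 3). The log2 fold change was 0.45 (SE 0.36, unadjusted edgeR p = 0.222), since the fit moderates the SE of a gene towards that of genes of its level, and the exact permutation p was 0.1, the smallest possible.

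The other subunits did not share this pattern. Cct2, Cct3, Cct4, Cct5, Cct7 and Cct8 had log2 fold changes of -0.02, -0.20, 0.05, 0.61, 0.02 and -0.14, and in each the libraries overlapped. Cct5, with the highest of these fold changes, went from 19.3 to 56.1 counts within control and from 27.0 to 74.8 within M-Δx3,4. Its log2 fold change was 0.30 without M-Δx3,4 replicate 1 and 1.13 without control replicate 2. The Cct8 transcript used here, ENSMUST00000177376, had most of its counts in internal exons, of which one pair held nearly the same counts. The Cct8 transcript that ends at the 3′ end of the gene, ENSMUST00000026704, had 109, 122 and 61.4 normalised counts in control and 127, 143 and 114 in M-Δx3,4. Its log2 fold change was 0.39 (SE 0.37) with overlapping libraries, the opposite sign from the transcript used here, so the sign for Cct8 depends on the transcript. The counted region of Cct4 lay past the annotated end of its transcript, with 75 of its 249 bases exonic in other transcripts of the gene.

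The control libraries were the more spread out in the panel, as over all genes. Control replicate 3 was the lowest library for 19 of the 42 genes and control replicate 1 the highest for 16. For the 35 genes with a mean above 50 normalised counts the median coefficient of variation was 31.4% in control and 15.4% in M-Δx3,4, beside 32.3% and 21.4% over all 4667 genes of that level. Relative to each gene's own mean, the median over all 42 genes was 0.19, -0.06 and -0.33 (log2) in the control libraries and 0.12, 0.09 and 0.09 in M-Δx3,4. It was farthest down in control replicate 3 for the ER folding genes (-0.67) and the mitochondrial chaperones (-0.74). The medians over the 4667 genes with a mean above 50 lay between -0.06 and 0.03, a set that, unlike the 42, leaves out genes of low level. Control replicate 3 was instead the highest library for 9 genes, among them Calr, Manf, Xbp1, Syvn1 and Stip1.

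**Figure D4:**
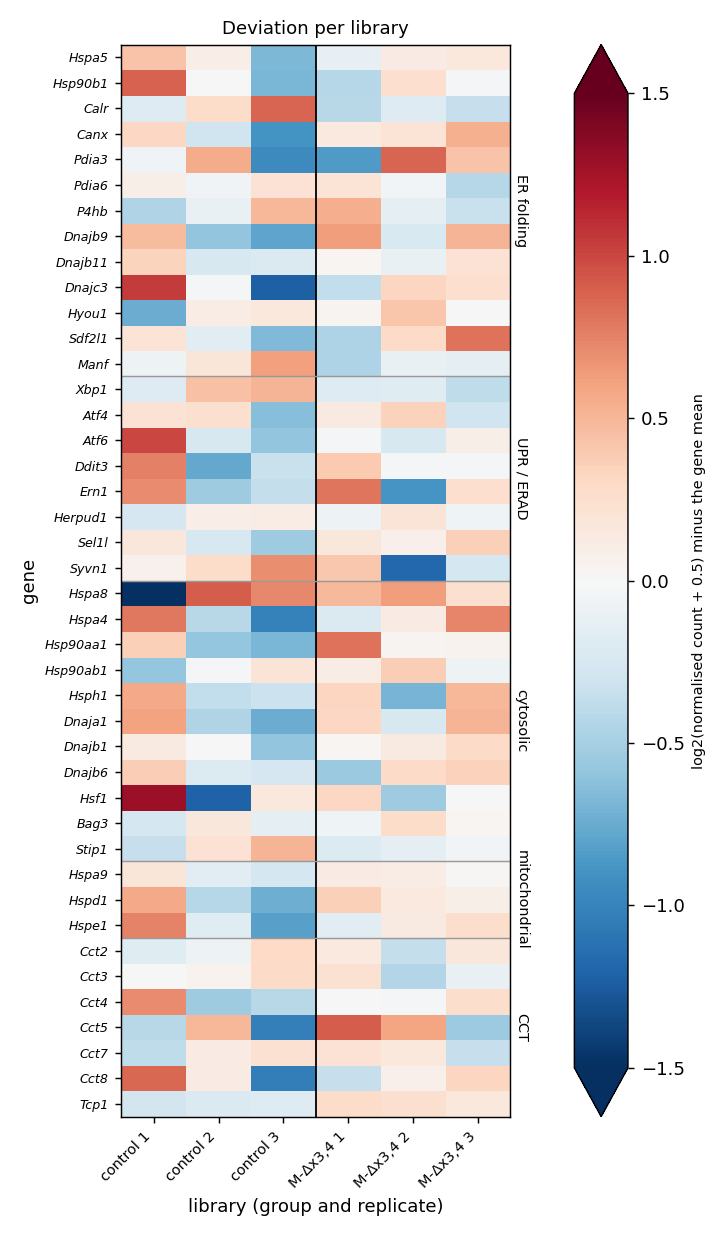
Deviation of each gene in each library from the gene's mean over the 6 libraries, on the scale log2(normalised count + 0.5), from blue (lower) to red (higher), with the colour scale ending at -1.5 and 1.5. Columns of control replicates 1 and 3 are the strongest and opposite in most rows, and Hspa8 in control replicate 1 lies past the end of the scale.

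The part of the GC trend and of control replicate 1 in these results was not tested. With the GC trend removed, 1 gene had an unadjusted p under 0.05 (4.77% of all genes) and 0 met the study's threshold (3.17% of all genes), and the median log2 fold change was 0.06. Without control replicate 1, 8 genes had one in edgeR, where 16.0% of 11369 genes did. These were Calr at -0.92 and Xbp1 at -0.73, and with higher levels in M-Δx3,4 Canx (0.88), Dnajb9 (1.04), Hspa4 (0.96), Hsp90aa1 (1.00), Dnaja1 (0.82) and Hspd1 (0.78). Of these Dnajb9 alone met the study's threshold, which 11.1% of all genes did in that fit, and the smallest adjusted p was 0.194.

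AUF1 is known for binding AU-rich elements in the 3′ ends of mRNAs. The pentamer ATTTA was present in the last 500 bases of 25 of the 42 transcripts (59.5%, against 51.3% of 9856 transcripts), with a median of 1 copy in both, and Hspa5 and Dnajc3 had the most, at 5. The nonamer TTATTTATT, a stricter form of the element, was in 0 of the 42 and in 2.65% of all.

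Of 105 other genes of the same pathways, 99 were tested, and 2 had an unadjusted edgeR p under 0.05, where 3.98% of all genes did. The median log2 fold change of the 99 was -0.04, with 49 above against 50 below 0. Both of the 2 also met the study's threshold, which 3.07% of all genes did, so these counts are no result about the pathways. Ptges3 (p23, a co-chaperone of HSP90) had 56.9, 37.0 and 45.5 normalised counts in control and 86.3, 97.04 and 106 in M-Δx3,4. Its log2 fold change was 1.06 (SE 0.37, unadjusted edgeR p = 0.0124, adjusted 0.984, exact permutation p = 0.1). Every M-Δx3,4 library was above every control library, and the unadjusted call was lost without control replicate 2. Hspb8, a small heat shock protein that works with Bag3, had 17.1, 5.01 and 3.41 counts in control and 1.92, 0.951 and 0 in M-Δx3,4, near the floor of 3 counts, and its unadjusted call was lost without M-Δx3,4 replicate 3. Hspb8 passed the filter on low counts through control libraries alone, the group where it was higher, so its call is no support for a difference. Libraries did not overlap for 5 of the 99 in the higher direction (Derl2, Bag5, Ptges3, Fkbp5 and Vbp1) and for 5 in the lower (Os9, Asns, Tmbim6, Hspb8 and Grpel2), against 4.18% and 4.26% of all genes. The inducible HSP70 genes Hspa1a and Hspa1b, which are near-identical copies, had 18.1 to 71.9 and 4.76 to 19.2 counts with overlapping libraries.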

How the data were processed

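Total RNA was made into QuantSeq 3′ mRNA libraries and sequenced on an Ion Proton. Per the labels and the study's methods, the authors mapped reads to mm10 with TopHat2 2.1.1 and then Bowtie2, and counted reads over 3′ regions of transcripts with metaseqR2. The deposited counts are whole reads per region, not normalised, and the deposited TPM values are the authors' own per-length values, used here only for the order of level per length. The strand setting and the treatment of reads with several matches are not given in the sources used here. All counted regions of the panel ran 249 bases past the annotated transcript end. Another 18 columns of per-sample values, and the authors' columns of fold changes and p-values, were not used.

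Counts of 177303 regions were summed per transcript (142567 transcripts), and normalised counts are counts divided by median-of-ratios size factors. The filter on low counts kept transcripts above the median of 4.79 normalised counts in any library (32475), so some were near the floor elsewhere. These were tested with edgeR 4.0.16 (quasi-likelihood, R 4.3.3, Benjamini-Hochberg over all transcripts), 3 control against 3 M-Δx3,4 libraries without a covariate. A gene was read by its highest transcript, so 11875 genes form the background, and every member is named. Values in every library are given for members with a call or without overlap and for the main factors of each arm. Members, lists and tests were chosen with earlier results of these data known. The script was tested on simulated data. Intervals of shares cover counting error only, since the reads carry no molecular identifiers. Alternatives were TMM, library totals, DESeq2 1.42.0, limma-voom 3.58.1, other filters and units, a GC correction, a replicate block, a stricter p and each library left out. Promoters came from RefSeq (GRCm38.p6) and transcript ends from GENCODE vM21.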

Additional observations from a re-analysis of the deposited data

How the results depend on the processing

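The count of panel genes with an unadjusted p under 0.05 was 1, and it was 0 with TMM, library totals, limma-voom, filterByExpr, identical transcripts taken once, a p threshold of 0.01 and the largest region of a transcript only, the last chosen after seeing the data. Leaving out 1 library gave 0 to 8, with 0 to 1 past the study's threshold, and a median log2 fold change of 0.0082 to 0.31 (0.09 with all). The highest count and median came without control replicate 1, and the cause was not tested. The count of other pathway genes was 2, and it was 4 without a filter, 4 with the GC trend removed, 1 with filterByExpr, 0 at p 0.01 and 1 to 13 with 1 library left out. The share of all genes with an unadjusted edgeR p under 0.05 also moved between fits. It was 3.98% with all libraries, 4.77% with the GC trend removed and 16.0% without control replicate 1. The shares for the other fits are not given here, so these counts are no result about the pathways. No adjusted p of a member was under 0.05 in any fit.

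Same-numbered libraries deviated together for replicate 2 (r = 0.55) but not for replicates 1 and 3 (r = -0.22 and -0.27). Deviations were taken from the mean of each genotype, so these values are not independent of one another. They cannot decide whether same-numbered libraries were paired. The replicate block gave 0 calls and a median of 0.14, and turned Dnajc3 to 0.080 and Cct8 to 0.028. Both also turned with limma-voom (0.13 and 0.038), Cct2 with TMM (0.0068) and library totals (0.0014), and Hspa5 (-0.18), Ern1 (-0.10), Herpud1 (-0.092) and Hspe1 (-0.046) with the GC trend removed.

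The sign turned for 20 of 42 members in at least 1 fit without a library and held for 22. Their log2 ranges were Hspa5 -0.21 to 0.29, Hsp90b1 -0.53 to 0.27, Pdia3 -0.052 to 0.75, P4hb -0.27 to 0.35, Dnajb11 -0.030 to 0.29, Dnajc3 -0.50 to 0.62, Atf4 -0.13 to 0.26, Atf6 -0.55 to 0.35, Ddit3 -0.18 to 0.69, Ern1 -0.25 to 0.70, Herpud1 -0.081 to 0.10, Hspa8 -0.36 to 0.63, Hspa4 -0.027 to 0.96, Hsph1 -0.13 to 0.48, Dnajb6 -0.077 to 0.31, Hspe1 -0.25 to 0.56, Cct2 -0.12 to 0.14, Cct4 -0.17 to 0.57, Cct7 -0.14 to 0.17 and Cct8 -0.49 to 0.39. The 95% interval reached past a 2-fold change for most genes of the panel.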
